A study of Mus musculus with 6 samples.

Results

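Laminins are the cross-shaped proteins that build the basement membrane, each made of 1 alpha, 1 beta and 1 gamma chain, and integrins are the alpha-beta receptor pairs by which cells hold on to laminins, collagens, fibronectin and other matrix proteins. The genes described here are all the laminin chains (Lama, Lamb and Lamc), the integrin alpha and beta chains (Itga and Itgb) and 4 linkers of the basement membrane, the nidogens Nid1 and Nid2, perlecan (Hspg2) and agrin (Agrn), chosen by gene symbol. They were 36 of the 15095 genes in the authors' deposited table. Of the 41 known mouse genes of these families that were listed by hand, Itgb2 and the leukocyte chains Itgad, Itgae, Itgam and Itgax are not analysed here.

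The measurement was polyA RNA-seq of neural progenitor cells (NPCs) in 2 groups, wild type (3 libraries) and Setd2-KO (3 libraries), where SETD2 is the enzyme that places the H3K36me3 mark on transcribed genes. Both groups came from mouse HA36CB1 embryonic stem cells of 1 isogenic background, grown as aggregates for 4 days without and 4 days with 5 uM retinoic acid and taken at day 8. The Setd2-KO line was made with CRISPR. Which knock-out clone gave the libraries, and whether the 3 libraries of a genotype were separate differentiations, is not stated, so that p-values reflect the spread among these libraries alone, and that spread may be technical. For each gene the table holds the log2 fold change between genotypes, the log2 CPM (counts scaled to library size) averaged across all 6 libraries, and a p-value with its false discovery rate (FDR), but no value, SD, standard error or depth per library. The comparison asked how the loss of SETD2 changes gene expression at the progenitor stage. The null hypothesis of the test was a log2 fold change of at most 1 in either direction, and genes with an FDR under 0.05 are called upregulated or downregulated. A gene that was not called is therefore not shown to be unchanged. All fold changes are Setd2-KO over wild type.

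The sample titles name the cells as NPCs, whereas the cell type field of the labels gives embryonic stem cells. The 11 neural progenitor markers had a median average log2 CPM of 7.78. The highest were Vim (9.82), Msi1 (9.24) and Sox3 (8.39), and the lowest was Fabp7 (3.56). The 10 pluripotency markers had a median of 1.70, and the highest of them, Klf4, had 3.71. The 12 neuron markers had a median of 7.37, so that these levels do not single out progenitors. Setd2 had a log2 fold change of -0.44 (FDR = 1), and RNA of a gene with an edited allele need not be lost, so this does not check the genotype.

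In the developing neural tube, laminin of the neuroepithelial basement membrane anchors the end feet of progenitors through integrins that share the beta1 chain, and dystroglycan serves as a further laminin receptor. The trimer of the Lama1, Lamb1 and Lamc1 chains (laminin-111) is the earliest laminin of the embryo. Retinoic acid is well known to raise its chains in embryonal carcinoma cells that become endoderm.

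Upregulated among the 36 genes were 2, the laminin chain gene Lama2 and the integrin chain gene Itga8. None was downregulated by the authors' edgeR test (0 at an unadjusted p under 0.05 as well). The study's own list of called genes holds 3 of the 36, among them Itgb6, which was not called here. Over all genes of the table, 1.54% were upregulated and 2.11% downregulated, which for 36 genes corresponds to under 1 gene in each direction, so that the count of 2 rests on single genes. At an unadjusted p under 0.05, 3 of the 36 genes lay higher, against 2.54% of all genes, and 0 lay lower, against 3.43% of all genes. The median log2 fold change of the 36 genes was 0.0047, that of all genes was 0.0089, and 18 lay above and 18 below 0. Within 0.5 of 0 on the log2 scale lay 22 of the 36 genes (61.1%), compared with 71.2% of all genes. In bulk samples, a change in the share of a cell type cannot be told apart from a change of RNA per cell.

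**Figure D1:**
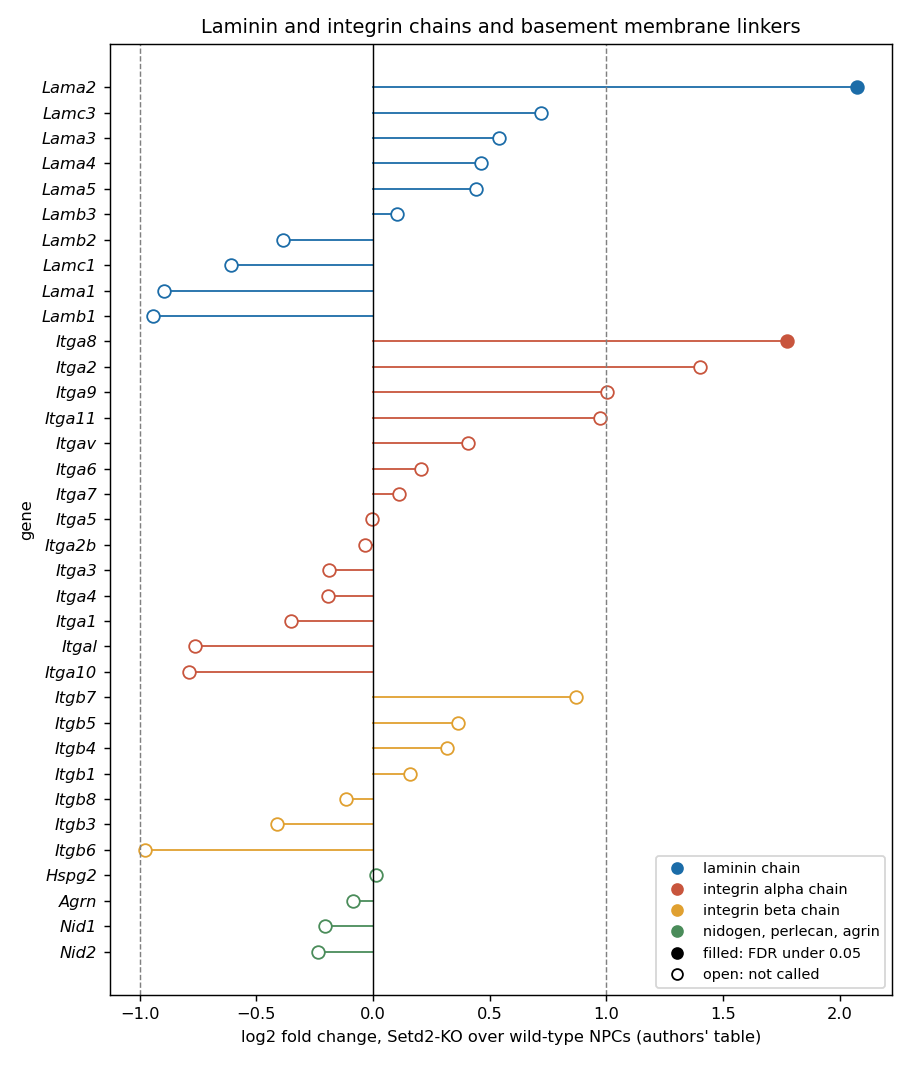
Of the 36 genes, 35 (y axis) with their log2 fold change between Setd2-KO and wild-type NPCs (x axis, from the authors' table with its sign reversed, so that positive is higher in Setd2-KO), coloured by family; filled points have an FDR under 0.05 and dashed lines mark the absolute log2 fold change of 1 that was tested against. Lama2 and Itga8 are the filled points, at 2.07 and 1.77, and Lama1 and Lamb1 lie at the lower end of the laminins, at -0.90 and -0.94.

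Lama2 encodes the alpha chain of merosin, the laminin of muscle, peripheral nerve and brain vessels. It rose with a log2 fold change of 2.07, which is 4.21-fold (FDR = 0.011), from a low level, its average log2 CPM being -0.42. Lama2 lies on chromosome 10 from 26856032 to 27495754 on the minus strand (GRCm39), and its canonical transcript has 65 exons. Itga8 encodes the alpha8 chain, which pairs with the beta1 chain and binds nephronectin, fibronectin and other ligands that carry the RGD peptide. It rose with a log2 fold change of 1.77, which is 3.42-fold (FDR = 0.00013), with an average log2 CPM of 1.12. Itga8 lies on chromosome 2 from 12110900 to 12307214 on the minus strand (GRCm39), with 30 exons in its canonical transcript. Both values lay outside the range of the neighbouring genes on the chromosome. Little follows from this, since both genes were picked for being called and the smallest absolute log2 fold change called was 1.09. Of the 10 nearest genes around Lama2, 0 were called and their log2 fold changes ran from -0.95 to 0.45, while those of the 10 around Itga8 ran from -0.72 to 0.95 with 0 called. The call of Lama2 was lost at an FDR under 0.01.

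Promoters are shown for these 2 upregulated genes, for Lamb1, which had the lowest log2 fold change among the laminins, and for Itgb1, the shared beta1 chain that had a log2 fold change of 0.16, since they differ in CpG content, the dinucleotide on which DNA methylation acts. The sequences are those of RefSeq on GRCm38.p6, from 250 bases before to 50 bases after the start of the gene, 5′ to 3′ on the strand of the gene, with each CpG in capitals. That of Itga8 is chr2:12301895-12302194 (minus strand), that of Lama2 is chr10:27616893-27617192 (minus strand), that of Lamb1 is chr12:31265043-31265342 (plus strand) and that of Itgb1 is chr8:128685404-128685703 (plus strand).
Itga8: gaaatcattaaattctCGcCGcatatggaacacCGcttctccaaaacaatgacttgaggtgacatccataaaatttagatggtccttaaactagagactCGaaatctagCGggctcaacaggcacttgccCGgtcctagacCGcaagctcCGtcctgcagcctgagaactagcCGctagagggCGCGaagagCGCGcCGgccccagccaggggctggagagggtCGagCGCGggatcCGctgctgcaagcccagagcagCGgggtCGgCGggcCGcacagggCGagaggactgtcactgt
Lama2: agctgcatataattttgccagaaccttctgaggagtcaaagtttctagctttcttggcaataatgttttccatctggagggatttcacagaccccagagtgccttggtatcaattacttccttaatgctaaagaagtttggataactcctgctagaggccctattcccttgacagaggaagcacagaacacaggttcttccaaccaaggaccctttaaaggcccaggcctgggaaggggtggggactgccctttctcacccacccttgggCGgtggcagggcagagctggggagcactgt
Lamb1: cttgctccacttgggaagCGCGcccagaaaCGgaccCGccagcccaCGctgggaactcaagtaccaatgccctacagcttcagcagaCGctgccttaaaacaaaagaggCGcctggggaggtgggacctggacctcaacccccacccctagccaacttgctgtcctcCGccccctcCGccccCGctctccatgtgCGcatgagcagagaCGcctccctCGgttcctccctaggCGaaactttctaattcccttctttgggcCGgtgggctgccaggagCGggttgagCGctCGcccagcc
Itgb1: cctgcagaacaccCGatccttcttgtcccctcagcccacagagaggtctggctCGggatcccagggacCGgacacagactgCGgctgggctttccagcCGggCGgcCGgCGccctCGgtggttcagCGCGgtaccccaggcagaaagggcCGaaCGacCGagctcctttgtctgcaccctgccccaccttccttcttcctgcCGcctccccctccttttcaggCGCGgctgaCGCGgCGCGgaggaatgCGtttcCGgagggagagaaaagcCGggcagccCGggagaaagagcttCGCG

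The Itga8 promoter held 23 CpGs and that of Lama2 held 1, while that of Lamb1 had 18 and that of Itgb1 had 27. Each count is of 1 window, and whether its start is used in these cells was not examined. Windows of 1 gene can differ, as for Itga3 with 5 and 24 CpGs. RefSeq promoters were found for 24 of the 36 genes (28 promoters, since Agrn, Itga3, Itgb6 and Lamb3 had 2 each). Their median was 12.5 CpGs in 300 bases, compared with 19 in the 15115 promoters of genes of the table and 7 in all 32851 promoters. Below 10 CpGs were 9 of the 28, among them those of Lama2, Lamb2, Itgb7, Itga10 and Itga2b, and also 24.2% of the promoters of genes of the table. A GC box (GGGCGG on either strand) was found in 15 of the 28 promoters (53.6%), compared with 60.6% of the promoters of genes of the table and 35.7% of all promoters. A TATA box (TATAAA on either strand) was found in 0 of 28, compared with 7.44% of the promoters of genes of the table and 13.6% of all promoters. Such matches describe the letters of these windows only.

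The chains of laminin-111 had the lowest values among the abundant genes. Lamb1 had a log2 fold change of -0.94 (1.92-fold lower as a value), Lama1 one of -0.90 (1.86-fold) and Lamc1 one of -0.61 (1.52-fold), and none of them passed the test (FDR = 1 for each). Their average log2 CPM was 7.63, 8.48 and 8.38, so that they are among the best measured of the 36 genes, and the table cannot say whether these values differ from 0 since the test was against a log2 fold change of 1. Some other abundant basement membrane genes, chosen after their values had been seen, had values of similar size. Others lay nearer to 0, such as the nidogens, perlecan, Col18a1 (-0.01, average log2 CPM 9.22) and Pxdn (-0.20, 8.07). Col4a1 and Col4a2, the main chains of collagen IV, had log2 fold changes of -1.05 and -1.03, and Sparc, a collagen-binding protein, had -0.99, and none of the 3 was called. Lama1 lies on chromosome 17, Lamb1 on chromosome 12 and Lamc1 on chromosome 1. The 10 genes around each of them had median log2 fold changes of 0.08, 0.27 and 0.01.

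Parietal endoderm is a rich source of laminin-111 and collagen IV. Of the 18 endoderm markers listed, all of which were in the table, 4 rose (Afp, Apob, Apoa1 and Ttr, with log2 fold changes of 2.78, 1.55, 1.43 and 1.33), 0 fell by the authors' edgeR test (1 lay lower at an unadjusted p under 0.05, Col4a1), and the median was 0.11. The 4 that rose encode secreted proteins of visceral endoderm and liver. Of all genes, 1.54% rose. Of the 6 transcription factors of the list, Gata4 had -0.96, Gata6 -0.54, Sox7 -0.46, Hnf4a -0.06, Sox17 0.27 and Foxa2 0.97, and none of these was called. The average log2 CPM of the 18 markers ran from -0.96 to 9.84, the highest being Col4a1 itself, and levels per library were not used here. The part of such cells in the laminin values was not tested.

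The remaining laminin chains lay nearer to 0 or above it. Lama5, the alpha chain of laminin-511 that stem cells adhere to, had a log2 fold change of 0.44 with an average log2 CPM of 7.14. Lama4, of vessel walls, had 0.46 with an average log2 CPM of 3.14. Lamb2, the beta chain of synaptic and kidney laminins, had -0.39 at an average log2 CPM of 6.63. Lama3 and Lamb3, chains found in the laminin of skin, had log2 fold changes of 0.54 and 0.10. Lama3 had the lowest level of all 36 genes, with an average log2 CPM of -1.90. Lamc3 had 0.72 with an average log2 CPM of -0.50. Taken as the alpha chains alone, 4 of 5 lay above 0, and Lama1 was the exception.

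Levels of different genes were compared per kb of the canonical transcript (GENCODE vM39). Agrn was highest with 67.6 CPM per kb, followed by Itgb1 (57.5), Lamc1 (42.0), Lama1 (37.3), Lamb1 (34.3), Hspg2 (20.4), Nid2 (18.5), Lamb2 (17.5), Itga3 (16.0) and Itga6 (15.8). The spread over libraries is not known, so that it cannot be said which neighbours in this order differ. Of these 10 genes, 9 were among the first 10 when the union of all exons was used as the length. Lama2, with 0.077, and Itga8, with 0.319, ranked 34th and 24th of 36. The wild-type and Setd2-KO levels that an average and a fold change stand for were calculated as 2 values with that mean and that ratio, and are an approximation. For Lama2 these were 0.0296 and 0.124 CPM per kb and for Itga8 0.144 and 0.493. For Lama1 they were 48.5 and 26.1, for Lamb1 45.1 and 23.5, and for Lamc1 50.8 and 33.3.

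**Figure D2:**
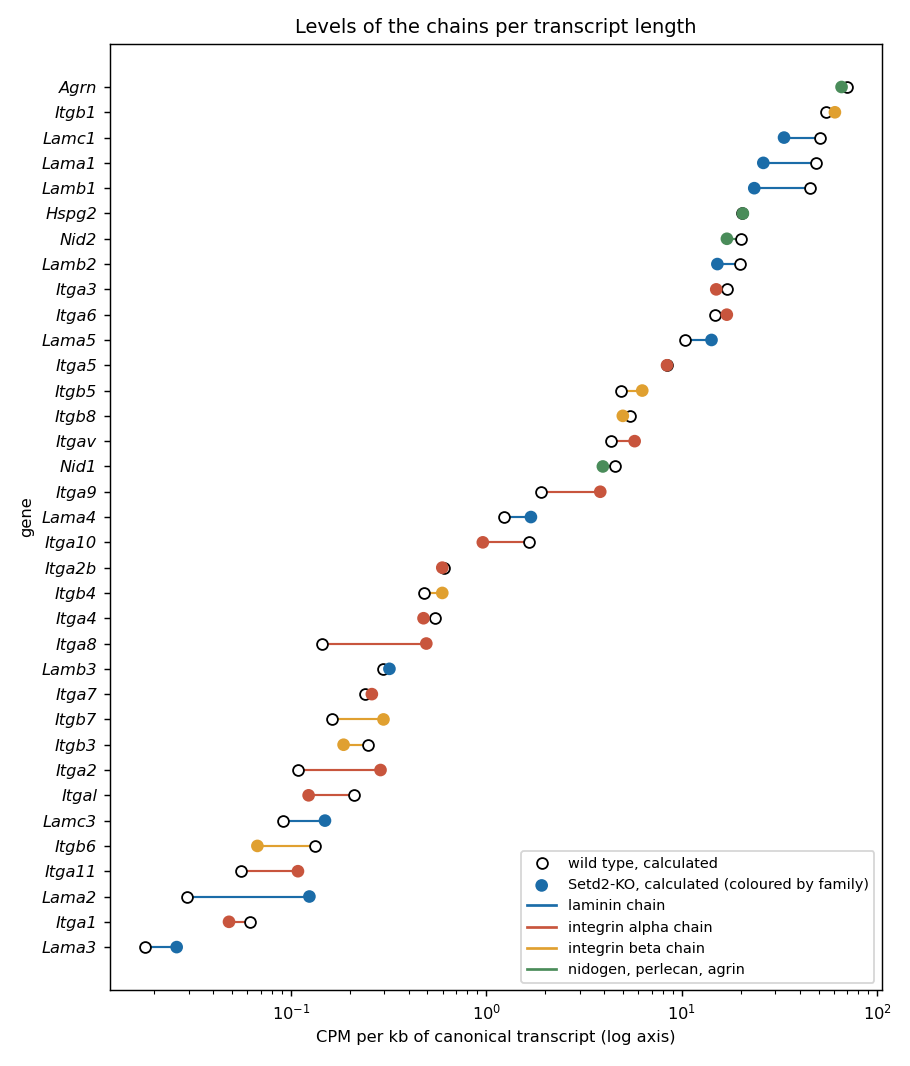
CPM per kb of canonical transcript (x axis, log axis) of 35 of the 36 genes (y axis), ordered by their average; open points are the wild-type and coloured points the Setd2-KO level, both calculated from the average log2 CPM and the log2 fold change of the authors' deposited table, and lines join the 2 genotypes in the colour of the family. The 3 chains of laminin-111 lie near the top with the Setd2-KO point to the left (26.1 against 48.5 for Lama1), and Lama2 and Itga8 lie low with that point to the right.

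By these levels, Lama1 made up 72.9% of the alpha chain transcripts per length and Lama5 24.0%, while Lama4 made up 2.85%, Lama2 0.150% and Lama3 0.043%. The calculated share of Lama1 was 80.6% in wild type and 62.0% in Setd2-KO, and that of Lama5 was 17.3% and 33.7%. The rise of Lama2 left its calculated share at 0.295% in Setd2-KO, compared with 0.049% in wild type. Among beta chains, Lamb1 had 65.8% and Lamb2 33.7%, and among gamma chains Lamc1 had 96.2%. Summed over a class, the calculated levels corresponded to log2 ratios of -0.52 for alpha, -0.74 for beta and -0.58 for gamma chains, with no test, since no spread is given. Each of these sums rests mostly on the chains of laminin-111.

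The alpha chains grouped here as laminin-binding (Itga3, Itga6 and Itga7), with Itgb1 and Itgb4, had log2 fold changes between -0.19 and 0.32. They differed widely in level. Itga1 and Itga2 were grouped with the collagen-binding chains and are given below. Itga6, whose product pairs with beta1 or beta4 chains, had a log2 fold change of 0.21 (average log2 CPM 6.13), and Itga3 had -0.19 (6.31). Itga7, best known from muscle, had 0.11 at an average log2 CPM of only 0.04. Itgb1 had 0.16 with an average log2 CPM of 8.17. Itgb4, the partner of alpha6 in hemidesmosomes, had 0.32 (1.74). Of the laminin receptors outside the integrins, dystroglycan (Dag1) had a log2 fold change of 0.23 and Bcam had -0.28, and neither was called.

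Of the collagen-binding alpha chains, Itga2 was the third gene with an unadjusted p under 0.05. Its log2 fold change was 1.40 with p = 0.0075 and an FDR of 0.17 from the authors' edgeR test, at an average log2 CPM of 0.49. Itga1, its neighbour on chromosome 13, had -0.35 with an average log2 CPM of -0.71. The spans of both overlap Mocs2 on the opposite strand, and that of Itga1 also overlaps Pelo on the same strand. Lama4, Lama5, Lamb1, Lamb3, Itga4, Itgb4 and Nid2 also overlap a gene on the opposite strand, which makes 9 of the 36. Only genes of the table were searched for overlaps, so that the rest of the 36 may overlap genes outside it. The libraries were made with a directional kit, but whether the counting used strand is not stated, so that the values of these 9 genes are uncertain. Itga11, of fibroblasts, had 0.97 (average log2 CPM -1.20), and Itga10, of cartilage, had -0.79 (2.72). Itga10 is the one gene of the set on chromosome 3, and all of the 10 genes around it lay below 0, with a median log2 fold change of -0.44 and 1 called.

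Beside Itga8, the alpha chains that bind the RGD peptide had log2 fold changes between -0.03 and 0.41. Itgav, the alpha chain that pairs with most beta chains, had 0.41 (average log2 CPM 5.22), Itga5, of the main fibronectin receptor, had -0.01 (5.20), and Itga2b, of platelets, had -0.03 (1.89). Itga9, whose product binds tenascin and osteopontin, had a log2 fold change of 1.00 with an average log2 CPM of 4.34 and was not called (FDR = 1). Itga4, of the VCAM1 receptor, had -0.19 (2.35). Itgal, the only leukocyte alpha chain in the table, had -0.76 at an average log2 CPM of -0.20. Of the 10 leukocyte markers, 5 were in the table, with a median log2 fold change of -0.67 and 0 called by the authors' edgeR test (0 also at an unadjusted p under 0.05). Ptprc, which defines leukocytes, was among the 5 not analysed here.

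The partners of the alphav chain differed in level. Itgb5 had a log2 fold change of 0.37 with an average log2 CPM of 4.21, and Itgb8, which releases active TGF-beta and is a beta chain of radial glia, had -0.12 with 5.45. Itgb3 had -0.41 (0.33). Itgb6, an epithelial chain, had -0.98 at an average log2 CPM of -1.06 and was not called. The study's own list of called genes holds Itgb6 as higher in Setd2-KO. Its direction in this table is opposite to that, so that its sign is uncertain. Itgb7, of lymphocytes, had 0.87 (-0.69). By the levels per kb, Itgb1 made up 82.9% of the beta chain transcripts, with 82.8% and 83.0% calculated for wild type and Setd2-KO, whereas Itgb5 had 8.03% and Itgb8 7.50%. Summed over the class, the calculated log2 ratio was 0.16 for the beta and 0.09 for the alpha chains of integrins. Among the alpha chains, Itga3 made up 31.0%, Itga6 30.7%, Itga5 16.3% and Itgav 9.74%, and Itga8 0.616%.

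The linkers that join laminin to collagen IV or to the cell surface lay close to 0. Nidogens bind both laminin and collagen IV, and Nid1 had a log2 fold change of -0.21 (average log2 CPM 4.69) and Nid2 -0.23 (6.50). The 10 genes around Nid2 on chromosome 14 had a median log2 fold change of -0.49 with 0 called, and its span overlaps Rtraf on the opposite strand. The heparan sulfate proteoglycans Hspg2 and Agrn had 0.01 (8.21) and -0.09 (8.88). None of the 4 was called, and their values spanned from -0.23 to 0.01.

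**Figure D3:**
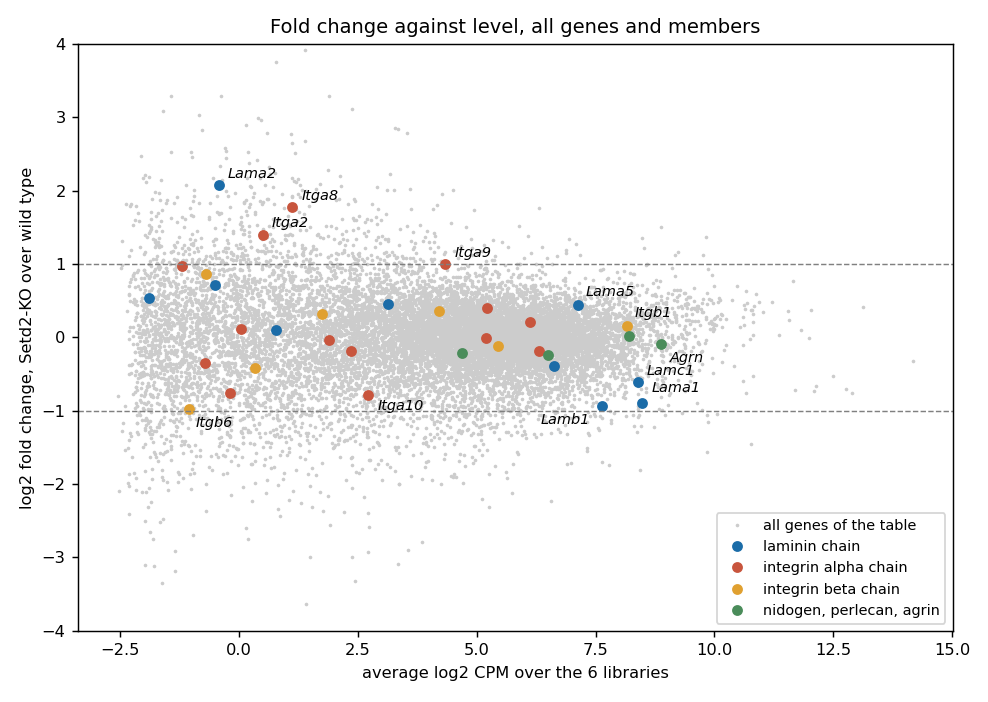
Average log2 CPM of the 6 libraries (x axis) and log2 fold change (y axis, positive where Setd2-KO is higher after the deposited sign was reversed), from the table of the authors; grey points are all 15095 genes, of which 4 lie outside the y axis, coloured points are 35 of the 36 genes by family, and dashed lines mark an absolute log2 fold change of 1. The 14 genes whose average log2 CPM reaches 5 lie between -0.94 and 0.44, and the points over 1 lie at lower levels.

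The size of a value went with the level of its gene. The 14 genes whose average log2 CPM reached 5 had log2 fold changes from -0.94 to 0.44, with a median absolute value of 0.22, the same as the 0.22 of all 6502 genes at that level, and 0 were called, compared with 1.57% of all such genes. The 14 genes between 0 and 5 had a median absolute value of 0.34 (0.33 for all genes at that level), with 1 called, compared with 5.65% of all such genes. The 8 genes under 0 had 0.82 (0.52 for all genes at that level), also with 1 called, compared with 3.70% of all such genes. Lama2 belongs to the last class, and the table holds no error by which the precision of its fold change could be judged.

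Of the genes that work with these chains, 167 of 171 entries in 5 lists were in the table. Of these, 7 rose, 6 fell and 154 were not called, with a median log2 fold change of 0.07. For comparison, 1.54% of all genes rose and 2.11% fell. Of 26 other basement membrane genes, 1 rose and 1 fell. Frem1, of the complex that joins epithelium to the underlying matrix in the embryo, rose by 2.01 on the log2 scale, and Ntn4, a netrin that binds laminin gamma chains, fell by 1.23. Their median was -0.03. Of 35 other integrin ligands, 5 rose and 4 fell, with a median of 0.22. The 4 with the lowest p were Col1a2, of collagen I (log2 fold change -1.63), Vwf, of vessel walls (-1.78), Spp1, which encodes osteopontin (1.48), and Vcam1, the ligand of alpha4beta1 (-3.18, at an average log2 CPM of only -1.36).

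Inside the cell, integrins are switched on by talins and kindlins and tied to actin. Of 61 such activators and adaptors, 1 rose and 1 fell, both kindlins, and the median was -0.0047. Fermt1, the kindlin of epithelia, rose by 2.02 on the log2 scale (average log2 CPM 1.61), and Fermt3, that of blood cells, fell by 1.34 (2.40). Fermt3 lies on chromosome 19, whose 509 genes had a median log2 fold change of -0.37, compared with 0.0089 for all genes. Fermt2, the third kindlin and the one with the highest level (6.14), had a log2 fold change of 0.47 and was not called. Tln1 had 0.01, Ilk 0.12 and the focal adhesion kinase gene Ptk2 -0.17. Of 16 tetraspanins and other membrane partners of integrins and of 29 genes of the dystroglycan complex and its glycosylation, 0 were called in either direction by the authors' edgeR test (0 also at an unadjusted p under 0.05), with medians of 0.08 and 0.04. The highest of the former were Bsg (log2 fold change 0.11), Sdc3 (0.07) and Slc3a2 (0.01), and those of the latter Dpm1 (0.07), Utrn (0.32) and Bcam. Bcam was put on the latter list as a laminin receptor and is not part of the dystroglycan complex. Fermt2, Tln1, Ilk, Ptk2, Dag1, the collagen IV genes, Sparc, Col18a1, Pxdn and the muscle marker Ttn were picked after their values had been seen. So were the 6 endoderm transcription factors and the progenitor and pluripotency markers named for their level.

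**Figure D4:**
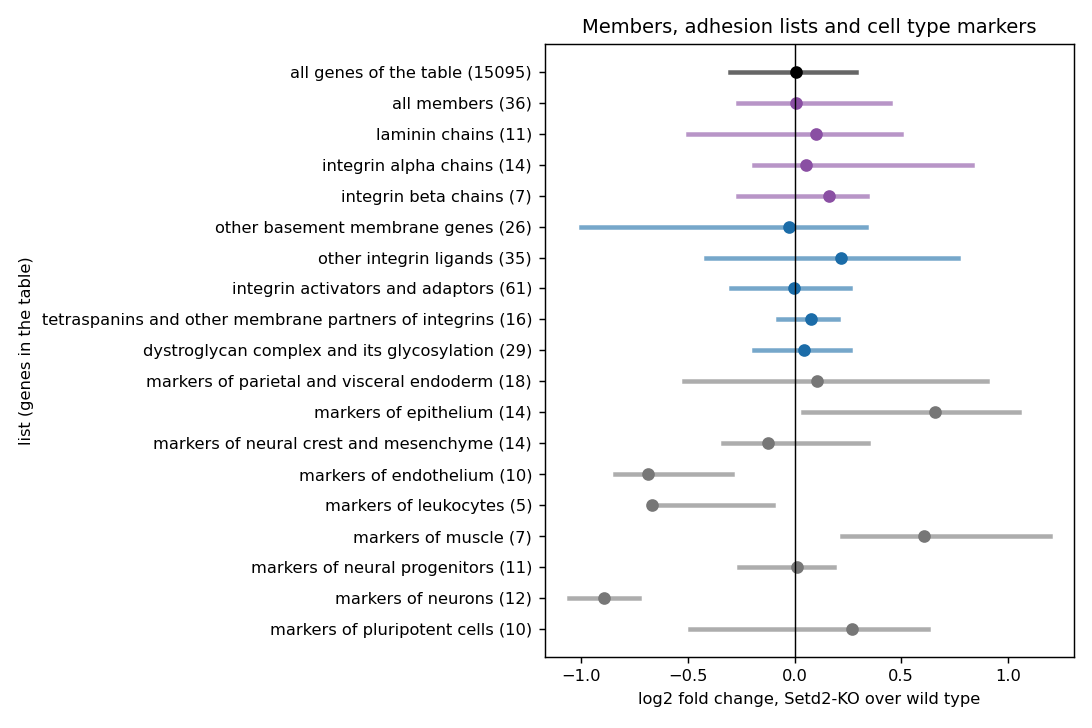
Lists of genes (y axis, with the number of genes tested) and their log2 fold changes (x axis, from the table of the authors with its sign reversed, so that positive means higher in Setd2-KO); each point is a median and its bar spans the middle 50%. The 36 genes (purple, with 3 of their families) and the adhesion lists (blue) have medians between -0.03 and 0.22. The median of all genes (black) is 0.01, and that of the neuron markers (grey) is -0.89. For some lists the middle 50% is wider than for all genes (-0.30 to 0.29), such as the other integrin ligands (-0.42 to 0.77).

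Marker lists of other cell types that can hold these chains were set beside them. For comparison, 1.54% of all genes rose and 2.11% fell. Of 14 epithelial markers, 2 rose, among them Cldn4 (log2 fold change 1.33), with a median of 0.66. Of 10 muscle markers, 7 were in the table, and Myod1, Myog and Myf5 were not analysed here. Des (1.86) rose, Ttn had -1.35 and was not called, and the median was 0.60. Most of these 7 had low levels, with a median average log2 CPM of -0.53. Of 10 endothelial markers, 0 were called (1 lay lower at an unadjusted p under 0.05), and the median was -0.69. Of 14 markers of neural crest and mesenchyme, 0 were called (1 lay higher at an unadjusted p under 0.05), with a median of -0.12. Of 12 neuron markers, Gap43 (-1.32) and Elavl3 (-1.28) fell and the median was -0.89. Of 11 neural progenitor markers, Fabp7 (-2.91) fell and the median was 0.01. Of 10 pluripotency markers, Utf1 rose (1.91) and Tdgf1 fell (-1.97). Their part in the values of Lama2, Itga8 and the other chains was not tested.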

How the data were processed

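Wild-type and Setd2-KO NPC libraries (3 of each) of polyA RNA were compared by the authors with edgeR (quasi-likelihood fit and glmTreat). The authors' deposited table holds log2 fold changes, the average log2 CPM, and the p-value and FDR of that test. These columns are the authors' own comparison and were used without refitting. The submitters' processing notes list Trim Galore, STAR and edgeR with NCBIM37 and mm9, whereas the paper's methods give GRCm39, STAR and Salmon. Depth per library is unknown.

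The deposited sign was reversed, so that positive values mean higher in Setd2-KO, since 518 of 523 genes shared with the study's list of called genes, which states the direction, then had its direction, and 5, Itgb6 among them, did not. The FDR was recomputed by the Benjamini-Hochberg method over 15095 genes, as tested on simulated data. Gene IDs were matched to GENCODE vM39 (15066 found, all 36 genes described here among them). Genes were chosen by symbol; each is named, with up to 4 called genes of each further list, or 3 with the highest level, except that 1 of the 36 and 1 called marker are counted but not reported here by name. The genes and the 5 pathway lists (171 entries) and 9 marker lists (110 entries, 101 of them in the table), with 2 entries matched through a synonym, were chosen with earlier results of these data known. Alternatives concerned the threshold, adjustment, low-value filter, chromosomes 3 and 19, centring and gene length. No set test was run. Python 3.11.15, numpy 2.4.6 and pandas 2.3.3 were used.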

Additional observations from a re-analysis of the deposited data

How the results depend on the processing

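Of the 2 upregulated genes, 1 (Itga8) was called at an FDR under 0.01, 1 (Itga8) with a Bonferroni adjusted p under 0.05, and 1 (Itga8) when the adjustment covered only genes whose average log2 CPM was not below 0, a filter that removes Lama2. An absolute log2 fold change of at least 1 without a test was reached by 4 genes, all higher in Setd2-KO. The count was 2 at an FDR under 0.10. It was also 2 without chromosomes 3 and 19, but that setting could not change it. Lama2 lies on chromosome 10 and Itga8 on chromosome 2, and the FDR was not recomputed. In none of these alternatives was a downregulated gene counted. The median of the 36 genes ran from -0.09 (21 genes whose average log2 CPM reached 2) to 0.01 over its alternatives. Of 84 alternative counts for the further lists, 80 were within 1.5 times of the main count. Many of the main counts were 0, and a count of 0 cannot change at an FDR under 0.01, so that this share overstates stability. The 4 that moved all had a main count above 0. No paired analysis was possible because the table gives no values per library, and for the same reason no library could be left out. Counting error is largest for the 8 genes whose average log2 CPM was below 0.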

Other observations

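Ligands of the receptor that holds the alpha8 chain were looked at after the call of Itga8 had been seen, so that the choice is not independent. The known ligand nephronectin (Npnt) had a log2 fold change of 0.50 with an average log2 CPM of 5.31. Frem1 was upregulated, and its partners in the same matrix complex, Fras1 and Frem2, had 0.69 and 0.63, neither of which was called. Spp1 was upregulated as well, whereas Fn1, the most abundant of the ligands listed (average log2 CPM 8.82), had -0.47, Vtn had -0.57 and Tnc had 1.06, and none of these 3 was called. For the Itga4 and Itgb7 pair of lymphocytes, the ligand Madcam1 was upregulated (1.71, at an average log2 CPM of 1.26). Further ligands that were called were Fgb (1.34), Fgg, Fbn2 (1.12) and L1cam (-1.13). Fgb and Fgg encode chains of fibrinogen, a product of liver, and Fbn2 encodes fibrillin-2 of elastic microfibrils.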
